A study of Mus musculus with 8 samples.

Results

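The members described here are 8 transcription factors of liver epithelium: Sox9, Sox4, Onecut1, Onecut2, Foxa2, Foxa3, Hnf4a and Cebpa. They were taken by gene symbol, all 8 were found among the 21968 named genes of the files, and all 8 passed the filter on low counts that left 14404 genes tested. They were followed through 4 cell groups of mouse liver, sequenced as bulk RNA with 2 libraries a group: EpCAM-positive cells, named as cholangiocytes (the cells that line bile ducts) in the series text; hepatocytes, pelleted at low speed; b-gal+ F4/80high cells; and b-gal- F4/80high cells. The last 2 groups were sorted on an antibody to F4/80, a macrophage antigen, and on FDG, a fluorogenic substrate of beta-galactosidase, and whether the enzyme's activity came from the LacZ transgene or from the cells' own enzyme was not tested here. All mice, in every group, carried the Lgr5-LacZ transgene on a mixed C57BL/6 and CBA background and had received 1 µl/g of carbon tetrachloride (CCl4), a toxin that injures hepatocytes, in rapeseed oil by a single intraperitoneal injection 6 days earlier. Mice were 10 to 12 weeks old by the sample labels and 7 to 12 weeks old by the series text. No uninjured liver was analysed here, so every level below belongs to an injured liver. Each library pooled cells of 2 mice, and nothing in the labels says which mice went into which pool, so that p-values measure the spread between these pools only.

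Hepatocytes and bile duct cells both come from the hepatoblast of the embryonic liver. Hnf4a, Cebpa and the Foxa and Onecut factors bind enhancers and promoters of liver genes and keep one another expressed, while Sox9 and Sox4 act in the formation of bile ducts. After injury some hepatocytes can take up Sox9, and some duct cells can take up hepatocyte genes, so the balance between the 2 sets of factors is a common measure of fate in this tissue.

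The libraries held 16948568 to 24549242 reads of named genes, in which 14432 to 16130 genes were detected. Levels are CPM, the reads of a gene per 1e+06 reads of the library, after TMM scaling, a scaling that lines up the bulk of genes between libraries. The EpCAM-positive pair differed far more than any other pair of replicates: their correlation across genes was 0.926 (Spearman), against 0.985 for hepatocytes, 0.983 for b-gal+ and 0.980 for b-gal- cells, and EpCAM-positive replicate 1 lay closer to b-gal- replicate 1 (0.947) than to its own replicate. The duct markers were present in both EpCAM-positive libraries. Epcam had 88.5 and 214 CPM in EpCAM-positive cells against 0.148 and 0.160 CPM in hepatocytes. Because the cells were taken as EpCAM-positive, Epcam is no separate check of what they are. The duct keratin Krt19 had 28.4 and 112 CPM against 0.369 and 0.239 CPM. Markers of other cells were present as well. The summed level of 12 sinusoidal endothelial markers was 9899 and 8332 CPM in EpCAM-positive cells, 519 and 1218 CPM in hepatocytes, 4370 and 3298 CPM with the b-gal+ gate and 22760 and 26911 CPM with the b-gal- gate, with no marker at 0 in any library. The sum of 8 markers of B, plasma, T and NK cells was 4046 and 1594 CPM in EpCAM-positive cells, 1.03 and 2.24 CPM in hepatocytes and at most 80.9 CPM in the F4/80high libraries. The sum of 10 Kupffer cell markers was 1277 and 263 CPM in EpCAM-positive cells, 366 and 261 CPM in hepatocytes, 36688 and 34154 CPM with the b-gal+ gate and 3749 and 2491 CPM with the b-gal- gate. Replicate 2 of the EpCAM-positive pair thus held 2.41 times the Epcam and 3.94 times the Krt19 of replicate 1. It held 0.206 times the Kupffer and 0.394 times the lymphoid marker sum. However, it also held 6.82 times the sum of 20 hepatocyte function genes, at 5172 against 759 CPM. The sum of 7 mesothelial markers was 2.39 times as high, at 99.9 against 41.7 CPM. Fits without replicate 1 thus keep the library with more hepatocyte RNA and less Kupffer and lymphoid RNA. Several results on EpCAM-positive cells are therefore given with and without replicate 1. Leaving out 1 library of a pair leaves 1 library in that group. The p-values, intervals and calls of such fits take their spread from the other groups and do not measure the spread of that group. In bulk RNA, fewer cells of a type and less RNA per cell cannot be told apart. The part of the other cells in each result was not tested.

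The 8 factors were spread differently over the 4 groups. Sox9 was highest in EpCAM-positive cells, then in hepatocytes, and near 0 in both F4/80high groups. Hnf4a, Foxa3, Foxa2 and Onecut2 were highest in hepatocytes, with EpCAM-positive cells second, and Onecut1 was shared by both. Sox4 was the only member whose lowest group was hepatocytes, and Cebpa the only one whose b-gal+ level lay above its EpCAM-positive level. In Hnf4a, Foxa3, Foxa2 and Onecut2, EpCAM-positive replicate 2 lay nearer to the hepatocyte level than replicate 1 did, and in Cebpa, also highest in hepatocytes, replicate 1 lay nearer.

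**Figure D1:**
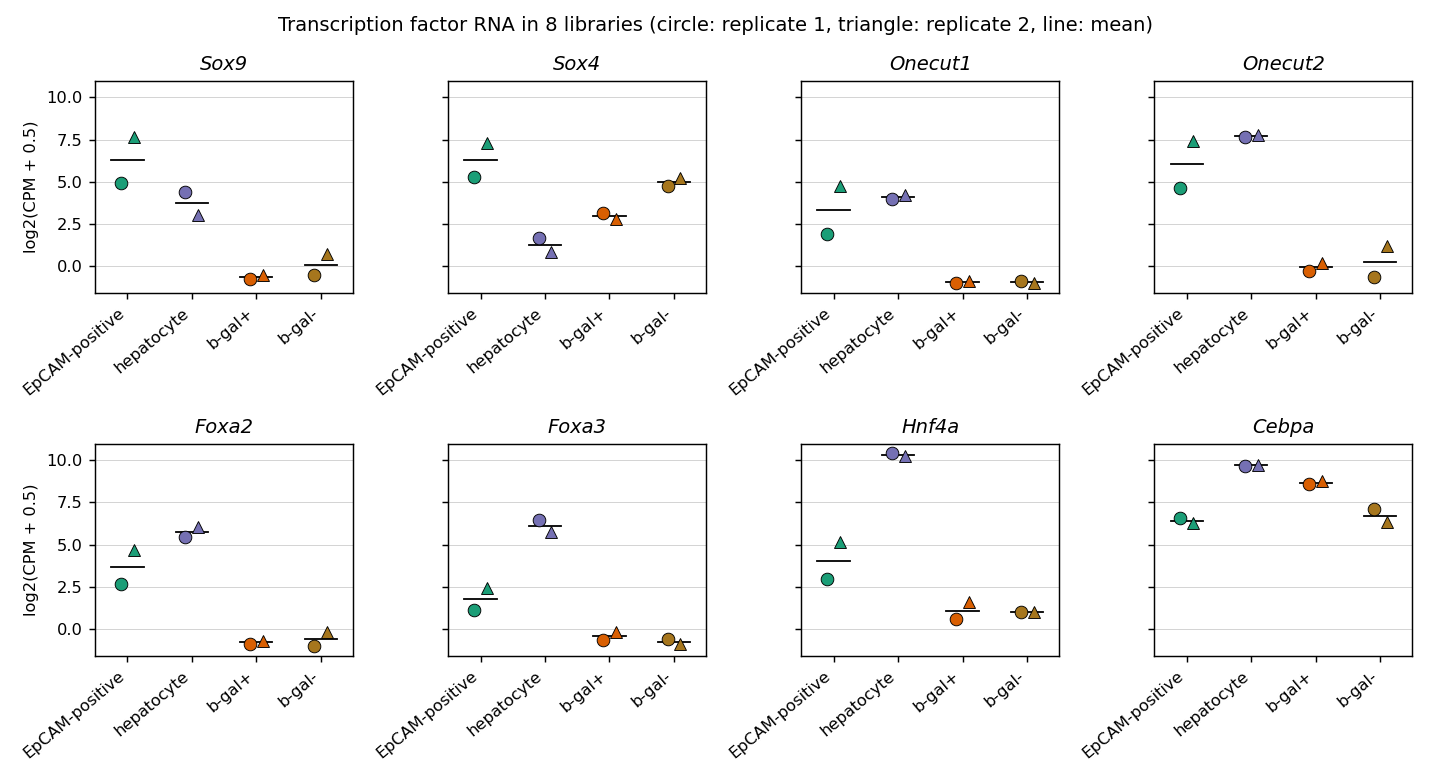
Level of each factor in each library, as log2(CPM + 0.5), by cell group (EpCAM-positive, hepatocyte, b-gal+ F4/80high and b-gal- F4/80high); circles are replicate 1, triangles replicate 2 and lines the means of 2 libraries. The EpCAM-positive points of Sox9 (30.0 and 201 CPM) and of Onecut1 (3.34 and 26.6 CPM) lie far apart, while those of Cebpa (93.0 and 77.7 CPM) lie close together.

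The main question that the set raises is how far the factors separate duct cells from hepatocytes. Sox9 and Sox4 were higher in EpCAM-positive cells than in hepatocytes, Hnf4a, Foxa3, Cebpa and Foxa2 were lower, and Onecut1 and Onecut2 did not pass the test. That is 2 members called higher, 4 lower and 2 not called at adjusted p under 0.05 by limma (a linear model fitted to log2(CPM + 0.5) of all genes, adjusted with the Benjamini-Hochberg method). The background is high in this comparison: 62.5% of all genes tested were called, 33.5% higher and 29.1% lower, so that 6 of 8 is no result about the members by itself. Without EpCAM-positive replicate 1, 2 members were called higher and 3 lower, against 60.5% of all genes (32.8% higher and 27.7% lower).

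Sox9 (chr11:112782224-112787760, plus strand, GRCm38) encodes the factor that marks bile duct cells and the ductal plate. It had 987 and 5388 reads in the EpCAM-positive replicates 1 and 2, or 30.0 and 201 CPM, against 279 and 98 reads in the hepatocyte replicates, or 20.6 and 7.82 CPM. Both EpCAM-positive libraries lay above both hepatocyte libraries, but replicate 1 by a small margin. The group means were 115.7 ± 121 CPM in EpCAM-positive cells and 14.2 ± 9.03 CPM in hepatocytes (SD, n = 2 each). Sox9 was 5.92-fold higher, with a 95% interval from 1.28-fold to 27.3-fold and adjusted p = 0.0462 by limma. Without EpCAM-positive replicate 1 the difference was 3.92 on the log2 scale, and without replicate 2 it was 1.198. The call of Sox9 was lost under 10 of 18 alternatives, with adjusted p up to 0.253, which was reached without hepatocyte replicate 2. The hepatocyte reads themselves were well above the floor of 3 reads, so Sox9 RNA was detected in both hepatocyte libraries. Duct genes varied there: Epcam had 2 and 2 reads and Krt19 had 5 and 3, but Pkhd1 had 223 and 269 and Spp1 had 1537 and 125. Whether the Sox9 reads came from hepatocytes or from duct cells was not tested.

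Sox4 (chr13:28948919-28953713, minus strand), a SoxC factor that acts with Sox9 in bile duct formation in the mouse, showed a wider gap. It had 38.3 and 155 CPM in EpCAM-positive cells against 2.66 and 1.28 CPM in hepatocytes. No library of one group came near the other. The difference of 5.03 on the log2 scale, or 32.8-fold (interval 11.6-fold to 92.8-fold), had adjusted p = 0.00053 by limma and was called under all 18 alternatives. With 1 library left out it ranged from 4.014 to 6.014. Sox4 was not particular to EpCAM-positive cells: the b-gal- libraries had 26.8 and 37.3 CPM, close to EpCAM-positive replicate 1. The sinusoidal endothelial marker sum was also high in the EpCAM-positive and b-gal- libraries and low in hepatocytes, as given above. Within the EpCAM-positive pair the 2 did not move together: replicate 2 had 4.045 times the Sox4 of replicate 1 but 0.842 times that sum. The part of endothelial cells in the Sox4 level was not tested.

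Hnf4a (chr2:163506808-163572910, plus strand), the nuclear receptor on which most hepatocyte functions depend, had the largest difference of the 8 with all libraries in the fit. It had 7.23 and 35.04 CPM in EpCAM-positive cells against 1342 and 1189 CPM in hepatocytes. The groups stood far apart, with both EpCAM-positive libraries at a few percent of the hepatocyte level or less. Hnf4a fell by 6.25 on the log2 scale (95% interval -7.88 to -4.63, adjusted p = 0.000286 by limma), and its difference was -5.16 without EpCAM-positive replicate 1. Its antisense partner Hnf4aos overlaps it, and strand use in the counting is not given in the sources used here, but Hnf4aos itself had 0 and 1 reads in the EpCAM-positive libraries and 85 and 73 in the hepatocyte libraries, few beside the 18179 and 14901 reads of Hnf4a there.

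Mouse Hnf4a has 2 known start regions, of which the downstream one is the main start in adult liver, and the counts are per gene and cannot separate them. The bases before each RefSeq start (GRCm38.p6) that lie in no GENCODE exon are shown because Hnf4a had the largest difference and because the Onecut letters occur before one start only. Capitals mark the letters ATCAATA, part of the sequence that Onecut factors bind.
Hnf4a upstream start, chr2:163506607-163506807, plus strand: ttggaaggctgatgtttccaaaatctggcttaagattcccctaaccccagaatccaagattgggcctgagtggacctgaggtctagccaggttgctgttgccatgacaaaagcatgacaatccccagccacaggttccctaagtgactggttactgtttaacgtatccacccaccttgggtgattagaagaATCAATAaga
Hnf4a downstream start, chr2:163546943-163547154, plus strand: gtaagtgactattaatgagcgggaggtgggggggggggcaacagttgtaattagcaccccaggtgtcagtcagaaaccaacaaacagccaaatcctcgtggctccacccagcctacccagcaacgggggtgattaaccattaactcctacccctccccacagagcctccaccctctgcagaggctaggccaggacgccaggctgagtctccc
The letters lie 59 bases before the upstream RefSeq start. That start lies inside the GENCODE gene given above, so the last bases before it are not shown, and the letters lie nearer to the GENCODE start. They were not found in the 250 bases before the downstream start.

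Cebpa (chr7:35119293-35121928, plus strand) encodes C/EBP alpha, a leucine zipper factor of hepatocyte metabolic genes that also acts in myeloid cells. It had 93.0 and 77.7 CPM in EpCAM-positive cells against 806 and 839 CPM in hepatocytes. Here the 2 EpCAM-positive libraries were close, with replicate 2 at 0.836 times replicate 1, while the other 7 members were 2.92 to 7.96 times higher in replicate 2. Cebpa fell by 3.27 on the log2 scale (interval -3.91 to -2.63, adjusted p = 8.6e-05 by limma), and was called under all 18 alternatives, with values between -3.40 and -1.89. The Kupffer marker sum, which moves with Cebpa among the F4/80high groups, was 1277 and 263 CPM in the 2 EpCAM-positive libraries, and its part in their Cebpa level was not tested. The annotation lists a predicted gene opposite Cebpa and another opposite Sox4, neither of which has a row in the files.

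The 2 Foxa factors, winged helix proteins that open chromatin at liver enhancers, did not move alike. Foxa3 (chr7:19013284-19023538, minus strand) had 1.64 and 4.79 CPM in EpCAM-positive cells against 87.5 and 53.9 CPM in hepatocytes. Its groups were well separated, and it fell by 4.36 on the log2 scale (interval -5.54 to -3.18, adjusted p = 0.000342 by limma). With 1 library left out its difference ranged from -4.996 to -3.708. Foxa2 (chr2:148042877-148046969, minus strand) had 5.87 and 25.4 CPM in EpCAM-positive cells against 43.3 and 65.4 CPM in hepatocytes, so its groups did not overlap but EpCAM-positive replicate 2 came near them. It fell by 2.06 on the log2 scale (interval -3.64 to -0.48, adjusted p = 0.0307 by limma), and by 1.06 without EpCAM-positive replicate 1. That call was lost under 8 of 18 alternatives, with adjusted p up to 0.369 under the scaling of the deposited values, and both count models were among them (edgeR 0.105, DESeq2 0.0985).

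The Onecut factors, which act in bile duct development and also on hepatocyte genes, are the members that did not pass the test. Onecut1 (chr9:74861921-74891781, plus strand), also named HNF6, had 3.34 and 26.6 CPM in EpCAM-positive cells against 15.3 and 18.0 CPM in hepatocytes. The hepatocyte libraries lay between the 2 EpCAM-positive ones. Its difference of -0.74 on the log2 scale had an interval from -2.66 to 1.17 and adjusted p = 0.448 by limma, which leaves room for changes of over 2-fold in either direction. Its sign turned with the scaling of the deposited values, at 0.56 (adjusted p = 0.552 by limma), and without EpCAM-positive replicate 1, at 0.66, whereas without replicate 2 it was -2.15. Onecut2, on chromosome 18, a relative of Onecut1 that overlaps with it in duct formation, had 24.6 and 170.3 CPM in EpCAM-positive cells against 199 and 220.3 CPM in hepatocytes. Both hepatocyte libraries lay above both EpCAM-positive ones, the second by little. Its difference was -1.68 (interval -3.88 to 0.52, adjusted p = 0.154 by limma), -0.30 without EpCAM-positive replicate 1 and -3.06 without replicate 2.

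**Figure D2:**
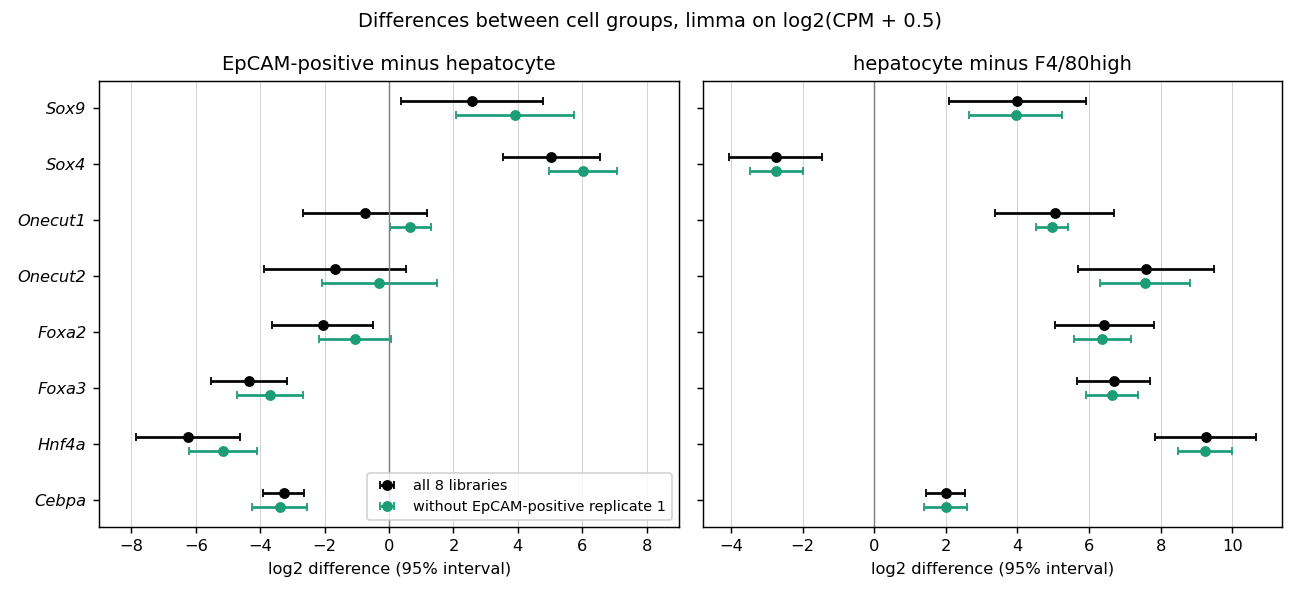
Log2 differences of the 8 factors, with 95% intervals, in EpCAM-positive cells minus hepatocytes (left) and in hepatocytes minus F4/80high cells (right), from limma on log2(CPM + 0.5); black marks use all 8 libraries and green marks leave out EpCAM-positive replicate 1. On the left, Sox9 and Sox4 lie right of 0, Hnf4a, Foxa3 and Cebpa well left of it, and the interval of Foxa2 crosses 0 in the green marks only. On the right, Sox9, Onecut1, Foxa2 and Foxa3 passed the filter on low counts through their epithelial reads only.

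The levels left in EpCAM-positive cells can be set against those of hepatocyte products in the same libraries; whether such RNA came from hepatocytes or from the EpCAM-positive cells was not tested. As a percent of the hepatocyte mean, 20 hepatocyte function genes had a median of 0.0457% in EpCAM-positive replicate 1 and 0.204% in replicate 2, and at most 1.06% and 2.86%. Alb, albumin, stood at 0.396% and 2.86%. Hnf4a, at 0.571% and 2.77%, lay at the top of the range of those genes and well above their median. Only Cyp8b1 (1.06%) lay above it in replicate 1 and only Alb in replicate 2. The other members lay above that range in both libraries: Foxa3 at 2.32% and 6.77%, Cebpa at 11.3% and 9.45%, Foxa2 at 10.8% and 46.7%, Onecut2 at 11.7% and 81.3%, and Onecut1 at 20.1% and 159.8%. Sox9 stood at 211% and 1418% and Sox4 at 1946% and 7872%. Of the other hepatocyte transcription factors tested, 16 in all, the median was 3.49% and 10.7%.

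**Figure D3:**
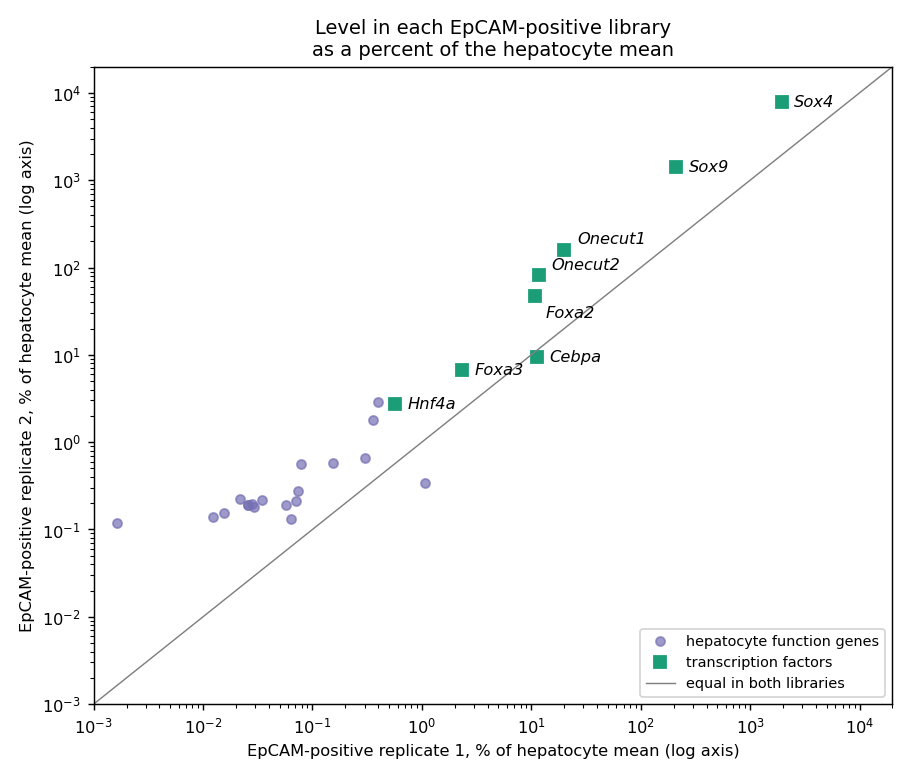
Level in each EpCAM-positive library as a percent of the mean of the 2 hepatocyte libraries, replicate 1 across and replicate 2 up, both on log axes; squares are the 8 factors, circles the hepatocyte function genes with reads, and the line marks equal percents. Hnf4a sits beside the highest hepatocyte function genes, and Foxa3, Cebpa, Foxa2, Onecut2, Onecut1, Sox9 and Sox4 lie beyond all of them on both axes; Cebpa alone among the factors lies below the line.

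Ratios between 2 members within 1 library do not depend on scaling. There were 4.15 and 5.75 reads of Sox9 per read of Hnf4a in the EpCAM-positive libraries, against 0.0153 and 0.00658 in the hepatocyte libraries. The exact counting intervals (95%) were 3.60 to 4.80 and 5.36 to 6.17 in EpCAM-positive cells and 0.0136 to 0.0173 and 0.00534 to 0.00802 in hepatocytes. The intervals of the 2 EpCAM-positive libraries did not overlap, and both lay far above those of hepatocytes; Sox9 itself differed 6.72-fold between the same 2 libraries. Sox9 over Onecut2 was 1.22 and 1.18 in EpCAM-positive cells, against 0.104 and 0.0355 in hepatocytes. Onecut2 over Onecut1 was 7.35 and 6.40 in EpCAM-positive cells against 13.005 and 12.2 in hepatocytes, and Foxa2 over Foxa3 was 3.57 and 5.30 against 0.495 and 1.21. Both ratios kept the groups apart. Ratios to Cebpa did not agree between the EpCAM-positive libraries: Sox9 over Cebpa was 0.323 in replicate 1 and 2.59 in replicate 2, against 0.0256 and 0.00932 in hepatocytes. No test was run on these ratios, which rest on 2 libraries a group.

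**Figure D4:**
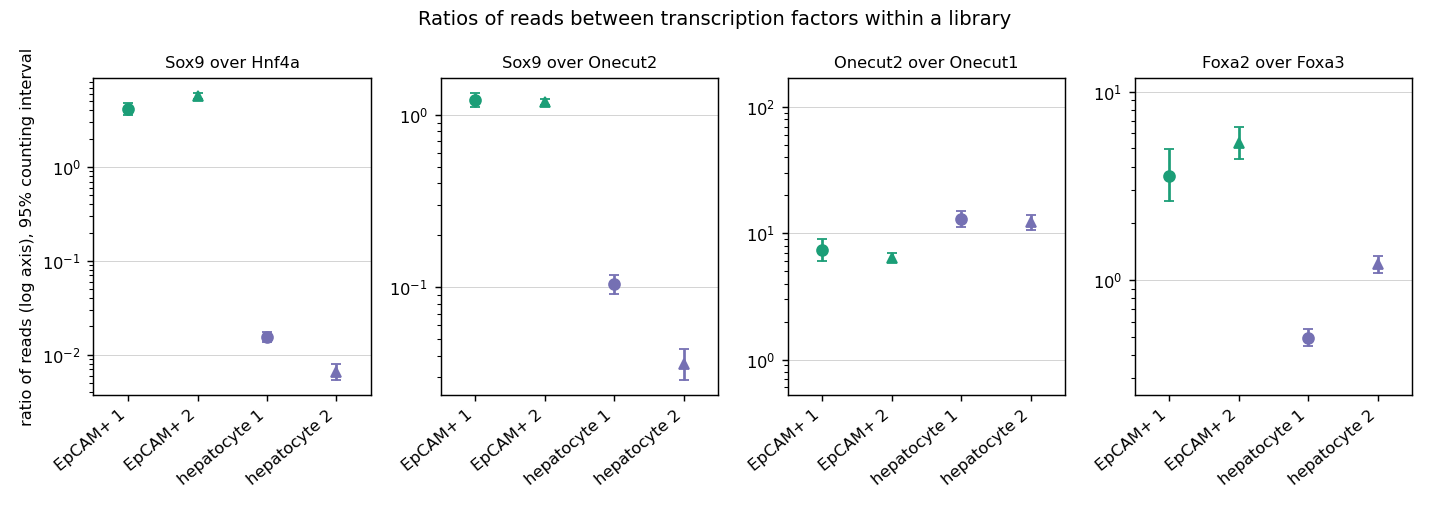
Reads of one factor per read of another within each EpCAM-positive and each hepatocyte library, on log axes that span different ranges; bars are exact 95% counting intervals, circles replicate 1 and triangles replicate 2. The EpCAM-positive libraries lie at 4.15 and 5.75 for Sox9 over Hnf4a and at 1.22 and 1.18 for Sox9 over Onecut2, and the hepatocyte libraries lie apart from them in all 4 panels.

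Scaled by exon length, which allows levels of different genes to be compared, Cebpa had the highest mean in every group. In EpCAM-positive cells the order of mean level per kilobase was Cebpa at 32.4, Sox9 at 28.0, Sox4 at 20.1, Foxa2 at 6.59, Onecut2 at 6.00, Hnf4a at 4.38, Onecut1 at 3.64 and Foxa3 at 1.58 CPM per kilobase. Every pair of neighbours in that order overlapped between libraries, and in replicate 2 alone Sox9 (48.7) and Sox4 (32.3) lay above Cebpa (29.5 CPM per kilobase). In hepatocytes the order was Cebpa at 312, Hnf4a at 262, Foxa3 at 34.7, Foxa2 at 22.9, Onecut2 at 12.9, Onecut1 at 4.05, Sox9 at 3.44 and Sox4 at 0.410 CPM per kilobase. There the libraries of neighbours were apart, except for Foxa3 with Foxa2 and for Onecut1 with Sox9. Exon lengths are those of the full GENCODE M21 models, so a gene read mainly from a short isoform is understated.

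Other transcription factors, from lists described by counts and medians only, also differed between EpCAM-positive cells and hepatocytes. Of 16 tested factors of other hepatocyte functions 1 was higher and 12 were lower, with a median difference of -3.93, against a median of 0.15 over all genes tested. Creb3l3, a factor of fasting metabolism, averaged 2.47 ± 2.38 CPM in EpCAM-positive cells and 608 ± 5.23 CPM in hepatocytes (adjusted p = 4.6e-05 by limma), and the nuclear receptor Nr1i3 averaged 0.236 ± 0.248 and 139.7 ± 84.6 CPM. The gene that was higher was Ahr, the receptor for aromatic hydrocarbons, at 1.74-fold (adjusted p = 0.0352), a call that did not hold without EpCAM-positive replicate 1, where 0 were higher and 11 lower. Of 18 other biliary and epithelial factors 11 were higher and 0 lower, with a median of 2.70, and 13 were higher without EpCAM-positive replicate 1. Ehf, an ETS factor of epithelia, averaged 98.6 ± 80.7 CPM in EpCAM-positive cells and 0.114 ± 0.048 CPM in hepatocytes, and Glis3, a zinc finger factor of ducts, averaged 69.7 ± 71.3 and 0.197 ± 0.174 CPM.

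Factors of the foregut and hepatoblast were mixed. Of 8 tested, 3 were higher and 1 was lower (6 and 1 of 9 without EpCAM-positive replicate 1), with a median of 0.80. Among those higher were Sox17 and Gata4, at 38.0 ± 8.55 and 177 ± 2.69 CPM in EpCAM-positive cells against 4.06 ± 1.15 and 34.6 ± 13.03 CPM in hepatocytes (SD, n = 2 each, as for the means that follow). Both are also expressed by sinusoidal endothelium, and both were highest in b-gal- cells, at 102.5 ± 5.36 and 452 ± 88.3 CPM. Tbx3 was lower, at 0.271 ± 0.0396 CPM in EpCAM-positive cells and 35.6 ± 18.6 CPM in hepatocytes. Of 8 tested paralogues of the members, 1 was higher and 2 were lower, with a median of 0.40, and 3 were higher and 1 lower without EpCAM-positive replicate 1. Cebpd averaged 38.8 ± 3.03 CPM in EpCAM-positive cells and 10.6 ± 4.30 CPM in hepatocytes, whereas Cebpb (87.9 ± 48.7 against 341 ± 111 CPM) and Cebpg (68.6 ± 0.215 against 100.6 ± 9.73 CPM) were lower, as Cebpa was. With the scaling of the deposited values, which moves all genes in this comparison up by 1.38 on the log2 scale, 4 paralogues were higher and 0 lower, so that these calls are relative to the bulk of genes. Onecut3, the remaining Onecut gene, had at most 2 reads in any library and was not tested. Spidr, Tmem189 and Tomm40l lie opposite Cebpd, Cebpb and Nr1i3, and without strand the reads of such partners cannot be told apart.

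Products of the 2 cell types are given beside the factors. Of 20 hepatocyte function genes 20 were lower in EpCAM-positive cells, with a median of -9.34, and of 20 biliary function genes 13 were higher and 0 lower, with a median of 4.13 (17 higher without EpCAM-positive replicate 1). Cps1, the entry enzyme of the urea cycle, averaged 7.75 ± 10.7 CPM in EpCAM-positive cells and 12880 ± 3927 CPM in hepatocytes. Ass1, another of the 20 hepatocyte genes, had only 28 and 30 reads in the hepatocyte libraries and 0 in every other library. Its call rests on few reads, and it entered the percents above as 0%. Spp1, osteopontin, averaged 3762 ± 2721 CPM in EpCAM-positive cells and 61.7 ± 73.2 CPM in hepatocytes, where replicate 1 had 113 and replicate 2 had 9.98 CPM.

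**Figure D5:**
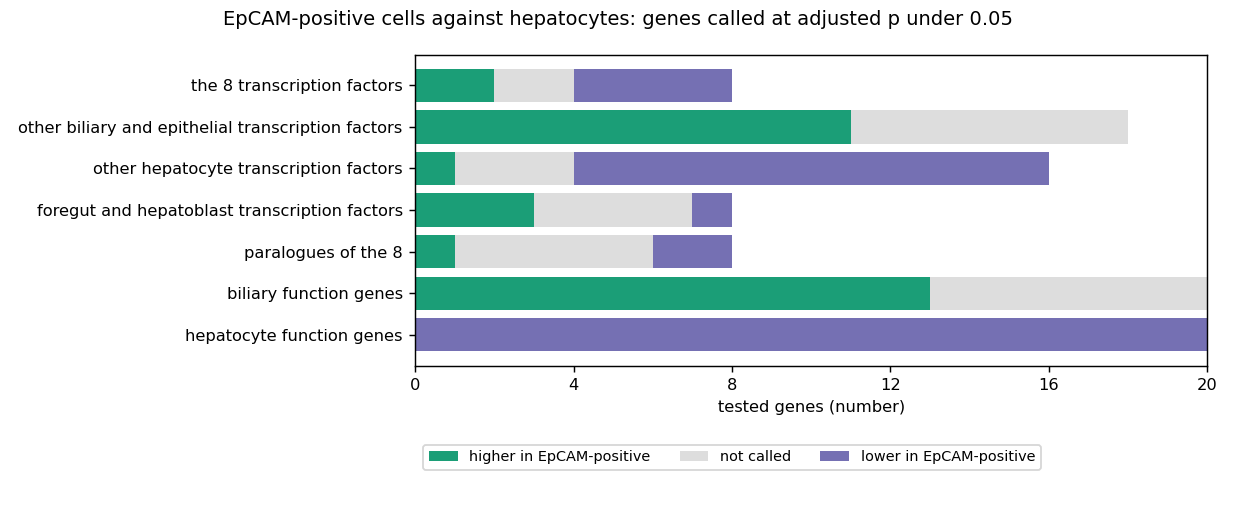
Number of tested genes called higher (green), not called (grey) and called lower (purple) in EpCAM-positive cells against hepatocytes, by list, at adjusted p under 0.05 by limma. Of the 8 factors 2 were higher and 4 lower, between the biliary lists, which had none lower, and the 20 hepatocyte function genes, which were all lower; 62.5% of all genes tested were called.

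Both epithelial groups were also set against F4/80high cells, with the b-gal+ and b-gal- groups weighted equally. The 2 comparisons share those 4 libraries. Sox9, Onecut1, Foxa2 and Foxa3 passed the filter on low counts through their epithelial reads only. They did not pass it when the 2 F4/80high groups were fitted alone, so that these 4 being higher in epithelial cells is no separate result. In EpCAM-positive cells 7 members were higher and 1, Cebpa, was lower, where 19.8% of all genes tested were called, 10.6% higher and 9.2% lower. The counts of members were the same without EpCAM-positive replicate 1, against 27.3% of all genes (15.7% higher and 11.7% lower). In hepatocytes 7 members were higher and 1, Sox4, was lower, where 66.2% of all genes tested were called, 31.4% higher and 34.8% lower. The members called higher include Sox9, Onecut1, Foxa2 and Foxa3 in both comparisons, whose calls are no support. Apart from these, Sox4, Onecut2 and Hnf4a were higher in EpCAM-positive cells, and Onecut2, Hnf4a and Cebpa in hepatocytes. All 8 hepatocyte calls held under the 18 alternatives, with the same limit.

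Several members were near 0 in F4/80high cells. Onecut1 had 0 and 1 reads with the b-gal+ gate and 1 and 0 with the b-gal- gate. Foxa2 had 1 and 3 reads with the b-gal+ gate and 0 and 8 with the b-gal- gate, and Foxa3 had 3 and 10 with the first and 4 and 1 with the second. Most of these libraries lay at or near the floor of 3 reads, which is 0.122 to 0.177 CPM before TMM scaling, so fitted differences depend on the pseudocount and the pooled reads are given with their counting error. Over the group, Onecut1 stood at 646 times the F4/80high level in EpCAM-positive cells (exact interval 178 to 5342) and at 778 times in hepatocytes (214 to 6447). Foxa2 stood at 114 times (65.0 to 222) in EpCAM-positive cells and at 421 times (240.2 to 816) in hepatocytes. Foxa3 stood at 15.9 times (9.77 to 27.4) and at 371 times (234 to 628). These intervals cover counting error only, since reads are not independent molecules. Onecut1, Foxa2 and Foxa3 passed the filter through their epithelial reads only, so the ratios describe levels and are no test.

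Sox9 had 2 and 5 reads with the b-gal+ gate and 5 and 24 with the b-gal- gate, or at most 1.17 CPM. Its fitted difference was 6.56 on the log2 scale in EpCAM-positive cells and 3.99 in hepatocytes. Since Sox9 passed the filter through its epithelial reads only, these values describe its level and are no separate result. Onecut2 had 0.313 and 0.644 CPM with the b-gal+ gate and 0.154 and 1.76 CPM with the b-gal- gate. Hnf4a had 0.984 and 2.57 CPM with the b-gal+ gate and 1.498 and 1.52 CPM with the b-gal- gate. The gates overlapped for both genes. Hnf4a stood at 0.0777% and 0.203% of its hepatocyte mean in b-gal+ cells and at 0.118% and 0.120% in b-gal- cells, where Alb stood at 0.135% and 0.348% and at 0.0839% and 0.203%. Hnf4a in hepatocytes was higher by 9.25 on the log2 scale (adjusted p = 1.8e-05 by limma). Of the 16 other hepatocyte factors 14 were higher in hepatocytes than in F4/80high cells and 0 lower, with a median of 5.41 (-0.16 over all genes), while in EpCAM-positive cells 4 were higher and 1 was lower, with a median of 0.55 (-0.02 over all genes), and 8 were higher and 1 lower without EpCAM-positive replicate 1, with a median of 0.92. Nr0b2 and Ppara, nuclear receptors of bile acid and fatty acid metabolism, averaged 197 ± 57.6 and 317 ± 10.8 CPM in hepatocytes (n = 2) against 0.234 ± 0.122 and 0.533 ± 0.144 CPM in F4/80high cells (n = 4).

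Sox4 and Cebpa were the members with substantial RNA in F4/80high cells. Sox4 had 8.32 and 6.60 CPM with the b-gal+ gate and 26.8 and 37.3 CPM with the b-gal- gate. EpCAM-positive cells lay above the mean of the gates by 2.28 on the log2 scale (interval 0.98 to 3.58, adjusted p = 0.0295 by limma). That mean hides a split, since EpCAM-positive replicate 1, at 38.3 CPM, was almost level with b-gal- replicate 2. The call was lost under 8 of 18 alternatives, among them the fit of only the groups compared (adjusted p = 0.0516 by limma). Hepatocytes lay below both gates, and Sox4 fell by 2.75 in them (adjusted p = 0.00364). Cebpa had 379.85 and 432 CPM with the b-gal+ gate and 138 and 79.3 CPM with the b-gal- gate. It was 3.99-fold higher in hepatocytes than in F4/80high cells (adjusted p = 0.000274 by limma), and in EpCAM-positive cells it fell by 1.27 on the log2 scale (adjusted p = 0.0122), a call lost without EpCAM-positive replicate 2 (adjusted p = 0.0634). For Cebpa too the mean hides a split, since the EpCAM-positive levels overlapped those of b-gal- cells.

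Between the gates, b-gal+ against b-gal-, 1 member was called, where 23.3% of all genes tested were called, 10.4% higher and 13% lower. Cebpa was 3.86-fold higher in b-gal+ cells (interval 2.48-fold to 6.01-fold, adjusted p = 0.00332 by limma), with no overlap between the libraries, and it was called under all 18 alternatives. Of the 8 tested paralogues 1 was higher and 1 lower. Cebpb was higher, at 563 ± 58.6 CPM with the b-gal+ gate and 150.1 ± 91.1 CPM with the b-gal- gate (adjusted p = 0.034). The Kupffer marker sum stood at 36688 and 34154 CPM with the b-gal+ gate and at 3749 and 2491 CPM with the b-gal- gate, 9 of its 10 genes were higher in b-gal+ cells, and its part in the Cebpa difference was not tested. Sox4 went the other way without a call, at -2.02 on the log2 scale (interval -3.53 to -0.52, adjusted p = 0.0616 by limma). Its libraries did not overlap, and it was called under 5 of 18 alternatives, at adjusted p = 0.00729 where only these 2 groups were fitted and 0.0103 without EpCAM-positive replicate 1. The endothelial marker sum was lower as well, at 4370 and 3298 CPM with the b-gal+ gate and 22760 and 26911 CPM with the b-gal- gate, 11 of its 12 genes were lower in b-gal+ cells, and its part was not tested. Sox9 and the other 5 members were not called, and with at most 64 reads a library their differences were not detectable at this depth unless large. Of these, Sox9, Onecut1, Foxa2 and Foxa3 did not pass the filter on low counts when only these 2 groups were fitted. The paralogue that was lower, Sox12, another SoxC gene, fell by 2.14 in b-gal+ cells (3.33 ± 0.609 against 16.9 ± 6.25 CPM, adjusted p = 0.00599).

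The genes nearest to each member in profile were found by the root mean square difference in log2(CPM + 0.5) over the 8 libraries, each gene centred on its own mean, among 9731 genes. This is a description: all points share the same libraries. Sox9 was nearest to Pkhd1 (0.478), Dab1 (0.530) and Elf3 (0.547), and Sox4 to Zfp462 (0.380), Mfge8 (0.388) and Vwf (0.604). Onecut1 was nearest to Tmem184a (0.168), Sox6 and Eppk1, Onecut2 to genes that include Bche (0.324) and Eps8l2 (0.339), and Foxa2 to Celsr1 (0.249), Pik3c2g and Arhgef26. Foxa3 was nearest to Thpo (0.260), Nipsnap1 and Tcea3, Hnf4a to Gsta3 (0.271), Nrn1 and Dpyd, and Cebpa to Hnmt (0.173), Stard5 and Aspa. Among the members themselves, Onecut1 and Foxa2 were the closest pair (0.677) and Sox4 and Hnf4a the most distant (5.17). No member was among the 3 genes nearest to another member.

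Promoter windows of 250 bases before a RefSeq start (GRCm38.p6) were found for 6 of the 8 members, with 9 windows in all. The motifs reported, searched on both strands, were the letters of HNF4A (CAAAGTCCA, and AAAGTCC, which it contains), FOXA (TGTTTAC and TGTTTGC), Onecut (ATCAATA), C/EBP (TTGCNNAA), SOX (AACAATG) and a TATA box (TATAAA). They occur in 0.387% and 3.60% (HNF4A), 3.17% and 4.31% (FOXA), 1.87% (Onecut), 9.57% (C/EBP), 3.21% (SOX) and 12.3% (TATA) of 32536 windows of all genes. The Onecut letters were found before the upstream start of Hnf4a, as shown above, and before the first start of Foxa2. The Foxa2 window is shown because, with Hnf4a, it is the one that holds the letters of another member; the capitals mark ATCAATA read on the other strand.
Foxa2 first start, chr2:148046970-148047219, minus strand: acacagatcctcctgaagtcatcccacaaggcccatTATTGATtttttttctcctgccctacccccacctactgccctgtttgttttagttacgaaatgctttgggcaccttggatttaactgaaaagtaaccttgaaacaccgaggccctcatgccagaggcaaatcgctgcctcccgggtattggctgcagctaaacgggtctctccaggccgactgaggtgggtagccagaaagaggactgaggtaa
Here the letters lie 214 bases before the start. The TATA letters lie 30 bases before the start of Cebpa, 36 before that of Foxa3 and, on the other strand, 208 before the third start of Foxa2. The windows of Sox4 and Onecut1, the other windows of Hnf4a and Foxa2, and all windows for the other motifs reported held no match. A match is a description of letters, and the files hold no measure of binding at these places.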

How the data were processed

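Bulk RNA of 8 libraries, 4 groups of 2, was analysed. The file deposited for hepatocyte replicate 1 holds whole read counts by symbol; the other 7 deposited files hold counts that the authors multiplied by 1 factor per library, with decimal commas (another unit, so the file type differs from a plain count table). Per the submitters' processing notes, HTSeq and GRCm38.p4 (mm10) were used; aligner, annotation, versions, strand and the scaling step are not given in the sources used here. Each file was divided by its smallest step, which gave whole reads within 0.01 for 100% of values, and 14 rows with dates in place of symbols (0.0514% to 0.182% of reads) were left out. Reads were scaled with TMM factors of 0.527 to 1.485 (edgeR 4.0.16). Genes passing edgeR's filter, 14404, were tested with limma 3.58.1 (trend, two-sided) on log2(CPM + 0.5), all 8 libraries in 1 fit with 4 residual degrees of freedom; adjusted p under 0.05 is a call, and differences are on that log2 scale, which understates low genes. The main test assumed the scaled unit; edgeR's quasi-likelihood test and DESeq2 1.42.0 were run on the recovered reads as alternatives, with other pseudocounts, scalings and filters, a replicate block, only the groups compared, and each library left out. The script was tested on simulated data. The members and lists were chosen with earlier results of these data known. Named are the members, the 2 top and 2 bottom called genes of each list by difference (mean of at least 5 CPM; not all are printed), check genes and the 3 nearest genes in profile (mean of at least 10 CPM); a few results are not reported here. Replicate 2 minus replicate 1 correlated between every pair of groups (0.177 to 0.494 over 14404 genes), so replicate numbers were taken to pair libraries, from the data and not from the labels. Replicates of each group differed by far more than counting noise. Positions are from GENCODE M21 on GRCm38. Intervals (exact, 95%) and the floor of 3 reads cover counting error only.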

Additional observations from a re-analysis of the deposited data

How the results depend on the processing

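Of 572 values of the 8 members under the alternatives, 528 kept their direction and their side of the threshold, 27 lost a call, 7 gained one and 10 changed sign; none of the 10 was called in either fit. Those were Onecut1 in EpCAM-positive cells against hepatocytes, with the scaling of the deposited values (0.56) and with 1 library left out (-2.15 to 0.66), and 8 differences in b-gal+ against b-gal- cells at few reads. Of these 8, 3 came with other settings: Hnf4a (-0.038) and Onecut1 (-0.0063) with the scaling of the deposited values and Onecut1 with edgeR (-0.013). The remaining 5 came with 1 library left out, where Hnf4a ranged over -0.41 to 0.61, Onecut1 over -0.051 to 0.058, Onecut2 over -1.22 to 0.55 and Foxa2 over -0.61 to 0.21. The causes were not tested. Against hepatocytes, Hnf4a, Foxa3, Cebpa and Sox4 kept their calls in EpCAM-positive cells under all alternatives, and Sox9 and Foxa2 did not, as given above.

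The count of all genes called in EpCAM-positive cells against F4/80high cells, 2849, was 1500 to 4045 with 1 library left out, and that in b-gal+ against b-gal- cells, 3358, was 1289 to 4366; the lowest values came with 1 b-gal+ or b-gal- library left out, and the cause was not tested. With the replicate block, as with the pairing taken from the data, the counts were 9597 in EpCAM-positive cells against hepatocytes, 3416 against F4/80high cells, 10007 in hepatocytes against F4/80high cells and 4061 in b-gal+ against b-gal- cells, and no call of a member changed (Onecut2 in EpCAM-positive cells against hepatocytes had adjusted p = 0.0584 by limma). The scaling of the deposited values moved all genes by 1.38 on the log2 scale in EpCAM-positive cells against hepatocytes, by 0.25 against F4/80high cells, by -1.13 in hepatocytes against F4/80high cells and by -0.16 in b-gal+ against b-gal- cells. With it the calls in EpCAM-positive cells against hepatocytes split into 9525 higher and 1698 lower (4823 and 4186 with TMM scaling), those against F4/80high cells into 2086 and 731 (1524 and 1325), those of hepatocytes against F4/80high cells into 2314 and 8665 (4516 and 5017), and those of b-gal+ against b-gal- cells into 1111 and 2304 (1491 and 1867). The limits are 2 libraries a group, the spread of the EpCAM-positive pair, and depth for Onecut1, Foxa2 and Foxa3 in F4/80high cells.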

Other observations

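Among the paralogues, Hnf4g, a relative of Hnf4a with few reads, had 80 and 272 reads in the EpCAM-positive libraries, 11 and 35 in the hepatocyte libraries, 0 and 0 with the b-gal+ gate and 0 and 3 with the b-gal- gate. Sall4, a zinc finger factor of the embryonic liver, had 9 and 76 reads in the EpCAM-positive libraries, 1 and 0 in the hepatocyte libraries, 1 and 0 with the b-gal+ gate and 0 and 1 with the b-gal- gate. Foxa1, the remaining Foxa gene, had 5.77 and 44.6 CPM in EpCAM-positive cells against 14.9 and 15.2 CPM in hepatocytes. Like those of Onecut1, its hepatocyte libraries lay between the EpCAM-positive ones (difference 0.11 on the log2 scale, adjusted p = 0.912 by limma, and 1.53 without EpCAM-positive replicate 1). These 3 genes were picked after their values were seen.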
